A study of Drosophila melanogaster and Nicrophorus vespilloides with 16 samples.

Results

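The genes described here encode the subunits of the nuclear RNA polymerases I, II and III of Drosophila melanogaster and their close associates. They were taken as every protein-coding gene of the fly RefSeq gene table whose symbol starts with Polr, which gave 31 of the 13922 protein-coding genes on the 6 chromosome arms searched. Of these, 7 carry a Polr1 symbol, 13 a Polr2 symbol and 10 a Polr3 symbol, and the last, PolrMT, encodes the separate polymerase of the mitochondrion. The measurements were chromatin immunoprecipitation with sequencing (ChIP-seq) of H3K4me3, histone H3 trimethylated at lysine 4, in 4 replicates of the Oregon-R strain, each of 30 whole third-instar larvae. All 4 samples were untreated, and each mixes the tissues of the larva. Whether a mark came from many cells or from few could therefore not be told apart. No treated or mutant group was compared, and the beetle brain samples of the series and the input libraries were not used for these genes.

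RNA polymerase I transcribes the large ribosomal RNAs, polymerase II all messenger RNAs, and polymerase III the transfer RNAs and 5S ribosomal RNA. The enzymes are built alike. A pair of large subunits forms the active centre, a pair of smaller ones the assembly platform, and further subunits make up the stalk and the initiation and cleavage modules. Some small subunits are built into more than 1 enzyme. H3K4me3 sits on the nucleosomes just inside the starts of active genes, and nearly every dividing or growing cell needs all of these enzymes.

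Each sample was deposited as a list of peak summits, a summit being the base of highest enrichment in a called peak, with the peak caller's score. Replicates 1 to 4 held 3518, 4969, 5236 and 5313 summits, with median scores of 5.97, 8.83, 15.2 and 24.7. The score depends on read depth, which is unknown, so it is given beside its percentile among all summits of the same replicate. A gene counted as marked if at least 3 of the 4 replicates had a summit no more than 1 kb from one of its ends.

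Nearly all polymerase genes carried H3K4me3. Of the 31 genes 30 were marked, against 43.9% of all protein-coding genes. A summit was present in all 4 replicates at 26 Polr genes, where 33.7% of all genes reached that number. Polr1B, Polr1D, Polr2K and Polr3B had a summit in 3 replicates, each time missing in replicate 1, and Polr2G, a stalk subunit of polymerase II, had a summit in replicates 3 and 4 and in neither of the others. Replicate 1 is the shortest list, and depth as a source of these absences was not tested. By chromosome arm, 11 Polr genes lay on 3R, 10 of them marked, and all of the 7 on 2L, 5 on 2R, 5 on 3L and 3 on X were marked. The share of all genes marked on each arm was not counted. By enzyme, 7 of 7 genes of polymerase I, 12 of 13 of polymerase II and 10 of 10 of polymerase III were marked, as was PolrMT. Genes were placed by the digit of their symbol here and below, so a subunit of several enzymes is counted once.

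The share of Polr genes with a summit was 83.9%, 96.8%, 100% and 100% in replicates 1 to 4, against 35.8%, 43.8%, 46.6% and 48.6% of all protein-coding genes. The means were 95.2% ± 7.68 for Polr genes and 43.7% ± 5.63 for all genes (SD, n = 4 each). The lowest Polr value lay above the highest value of all genes, so the ranges did not overlap. Fly genes lie close together and this bears on the count: each of the 31 Polr genes had an end of another gene within 1 kb, at a median of 61 bp. The corresponding distance over all genes was 192 bp. Among all protein-coding genes with such a neighbour 52.6% were marked.

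**Figure D1:**
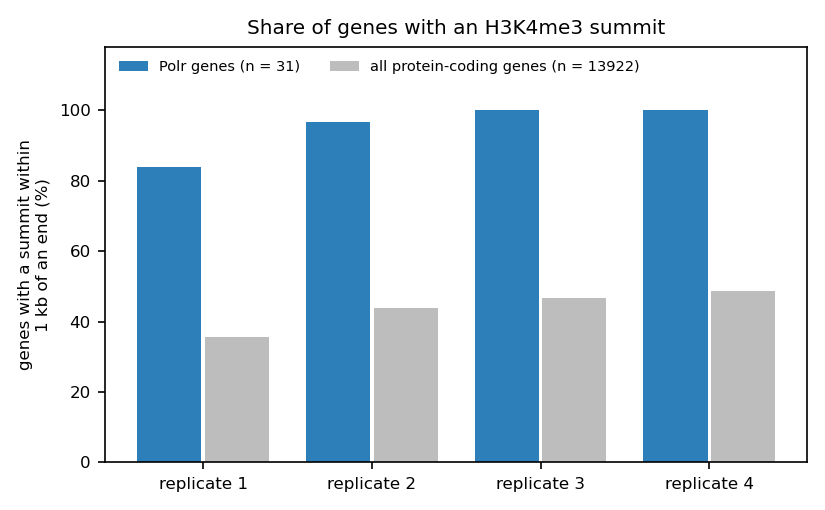
Share of genes with an H3K4me3 summit within 1 kb of an end, in percent, for the 31 Polr genes (blue) and all 13922 protein-coding genes (grey) in each of the 4 replicates. The Polr bars run from 83.9% to 100% and the bars of all genes from 35.8% to 48.6%.

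Because neighbours are so close, a summit was next assigned by the gene in which it lies. Within 1 kb of the Polr ends 196 summits were found, 110 inside the Polr gene and 86 outside it. A summit inside the gene was present in at least 3 replicates at 26 of 31 Polr genes, against 31.1% of all protein-coding genes. The 5 genes without it were Polr1C, Polr1D, Polr2D, Polr2G and Polr2J, each of which had such a summit in 2 replicates. With each summit counted only for the nearest gene end 24 Polr genes were marked, against 4250 of the 13922 protein-coding genes. Polr2L and Polr3I then fell below the threshold besides these 5. At the level of gene and replicate, 106 of 124 combinations had a summit inside the Polr gene, and in 63 of these a neighbouring gene held a further summit within the window. The summit in the Polr gene was the higher of the pair in 29 of the 63 and the neighbour's in 34.

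The summits inside Polr genes sat in a narrow zone. The highest one of each replicate lay a median of 200 bp from the nearest end of its gene, with quartiles of 174 and 239 bp, over 106 values. Over all protein-coding genes the median was 215 bp with quartiles of 177 and 287 bp. Between 100 and 300 bp from the end lay 97 of the 106 Polr values and 13342 of the 17798 values of all genes, a range chosen after the values were seen. The summits outside the Polr genes were 203 to 993 bp away from the nearest end, with a median of 460.5 bp, and none lay in a gap between genes. At 28 of 31 genes all summits inside the gene were nearest to the same end. The gene table carries no strand, so this end was not identified as the start. The 28 include the 5 genes with summits inside the gene in only 2 replicates. This count was not set beside one over all protein-coding genes.

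**Figure D2:**
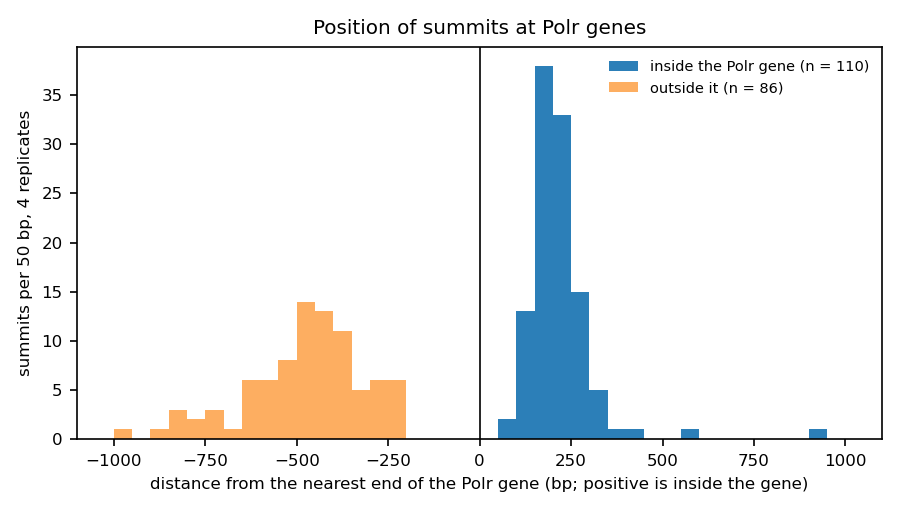
Number of H3K4me3 summits per 50 bp by distance from the nearest end of the Polr gene in bp, positive inside the gene, pooled over 31 genes and 4 replicates. Blue bars are the 110 summits inside the Polr gene, clustered around 200 bp, and orange bars the 86 outside it, none nearer than 203 bp.

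With a window of 250 bp, 21 of 31 Polr genes were marked, against 18.9% of all genes. Among the 10 that were not, summits inside the gene reached 257 bp from the end in Polr1B, 269 bp in Polr2C, 318 bp in Polr3F, 323 bp in Polr2E, 362 bp in Polr2H, 400 bp in Polr1F and 932 bp in Polr1D. Polr1C, Polr2G and Polr2J had summits inside the gene nearer than 250 bp, in 2 replicates each.

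The strength of the mark differed widely among the genes. A gene's mean percentile over the 4 replicates, counting an absent summit as 0, had a median of 62.2 over the 31 Polr genes, against 0.0735 over all protein-coding genes and 59.9 over the 6107 marked ones. With the window of 250 bp the Polr median was 36.6. Polymerase I genes had a median of 59.5, polymerase II genes 71.8 and polymerase III genes 63.9. The range ran from 12.1 for Polr1B to 94.2 for Polr2I. No gene differed from the next in this order by more than the larger of their SDs, and the SDs themselves ran from 4.29 to 44.6. Of the 31 genes 12 were at the 50th percentile or above in all 4 replicates, as were 12.2% of all protein-coding genes. None of the 31 was at the 90th or above in all 4, a count not set beside one over all protein-coding genes. Across Polr genes with a summit in both replicates of a pair, Spearman's rho of the percentiles ran from 0.123 to 0.565 over the 6 pairs (26 to 31 genes each), and across all genes from 0.231 to 0.530. Genes that share a summit are not independent points in these values.

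**Figure D3:**
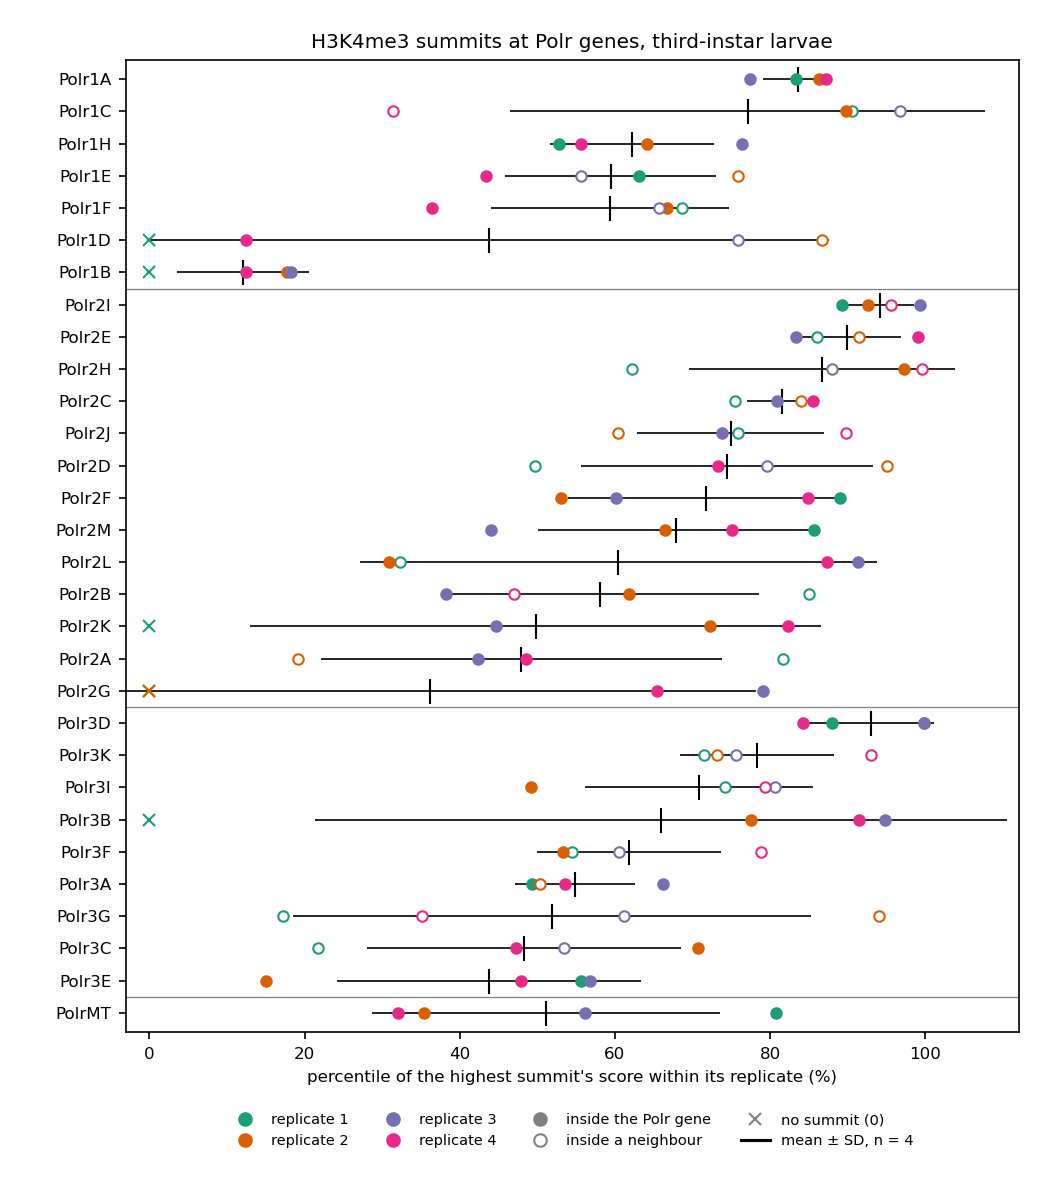
Percentile of the highest summit's score within its replicate, for 30 Polr genes (rows, by polymerase I, II and III and PolrMT, in order of the mean). Filled points are summits inside the Polr gene and open points summits inside a neighbour, crosses are replicates with no summit (replicates 1 and 2 coincide at Polr2G), and bars give the mean ± SD of n = 4. Polr2I and Polr3D lie farthest right and Polr1B farthest left.

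The largest subunits hold most of the active centre, and all 3 of their genes were marked in 4 replicates. Polr1A, that of polymerase I (Dmel_CG10122, 2R, 14595611 to 14601216), had scores of 8.88, 14.4, 21.9 and 41.9 in replicates 1 to 4. These stood at percentiles 83.4, 86.3, 77.4 and 87.2, the evenest of the large subunits, with a mean of 83.5 ± 4.44 (SD, n = 4). Its summits were at 14601105, 14601087, 14601016 and 14601051, all inside the gene within a span of 89 bp at the higher-coordinate end. That end lies close to Blos1, and tra2, a splicing factor of sex determination, also ends within 1 kb of these summits.

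Polr2A, which carries the repeated C-terminal domain of polymerase II (Dmel_CG1554, X, 11562800 to 11570326), was weaker than many small subunits. Its scores were 8.70, 5.37, 13.6 and 24.3 in replicates 1 to 4, at percentiles 81.7, 19.2, 42.4 and 48.5, a mean of 48.0 ± 25.8. The highest summit of replicates 1 and 2 lay in the neighbour CG11699. Inside Polr2A itself the scores were 3.65, 5.15, 13.6 and 24.3, with a mean percentile of 30.7 ± 17.2 (SD, n = 4). All 4 lay 175 to 291 bp inside the higher-coordinate end, and no summit came within 1 kb of the other end in any replicate.

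Polr3A, the largest subunit of polymerase III (Dmel_CG17209, X, 15762956 to 15769514), had scores of 5.94, 8.86, 18.9 and 26.2, and a mean percentile of 54.9 ± 7.74. The replicate 2 score was that of a summit in CG33172, and the summit inside Polr3A scored 7.08. With summits inside Polr3A alone the mean percentile was 50.9 ± 13.1. Summits inside the gene stood at its lower end in all 4 replicates, next to mRpL3, a protein of the mitochondrial ribosome. Near the higher end summits were found in 3 replicates, all inside CG33172. The summits of the gene itself were thus at 1 end in each of these 3 long genes.

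The second largest subunits complete the active centre. Polr1B, that of polymerase I (Dmel_CG4033, 2L, 404285 to 407969), had the lowest mean percentile of all 31 genes, 12.1 ± 8.50 (SD, n = 4). It had no summit in replicate 1, and scores of 5.20, 8.05 and 7.99 in replicates 2 to 4, at percentiles 17.8, 18.3 and 12.4. The 3 summits were at 404469, 404469 and 404542, inside the gene and within 1 kb of no other protein-coding gene. The remaining Polr genes shared every one of their highest summits with at least 1 neighbour. Last place depended on how summits were assigned. With the nearest gene end Polr1D was lower, at 0 against 12.1 for Polr1B. With 250 bp Polr3F was lower, at 0 against 9.01.

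Polr2B, the second largest subunit of polymerase II (Dmel_CG3180, 3R, 14125791 to 14130111), had scores of 9.15, 10.2, 12.7 and 23.7. The percentiles were 85.1, 61.8, 38.3 and 47.0. In each replicate 1 summit lay in Polr2B and another in 140up, a gene named for lying upstream of this one, 576 to 668 bp apart. The summit in 140up was the higher in replicates 1 and 4 and that in Polr2B in replicates 2 and 3. In replicate 1 the Polr2B summit scored 1.92, at percentile 0.895, close to the lowest score of that list, 1.31. The mean percentile was 58.0 ± 20.5 with either gene and 34.6 ± 25.2 with summits inside Polr2B alone (SD, n = 4 each).

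Polr3B, its counterpart in polymerase III (Dmel_CG8344, 2R, 12039041 to 12042623), had no summit in replicate 1 and scores of 12.5, 31.3 and 45.6 in replicates 2 to 4. These were high, at percentiles 77.6, 94.8 and 91.4, so that the mean of 65.9 ± 44.6 (SD, n = 4) is carried by the absence. All 3 summits lay 131 to 195 bp inside the lower-coordinate end.

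Of the active-centre pairs, that of polymerase I differed by more than its spread and the others did not. Polr1A exceeded Polr1B in 4 of 4 replicates, by a mean of 71.4 ± 10.2 percentile points (SD, n = 4). Polr2A minus Polr2B came to -10.1 ± 21.9 points, with each the higher in 2 replicates, and Polr3A minus Polr3B to -11.1 ± 40.5 points, with Polr3A the higher in 1. With 4 replicates, and with genes compared after earlier results were known, these differences were not tested.

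The assembly platform is formed by Polr1C and Polr1D in polymerases I and III and by Polr2C and Polr2J in polymerase II. All 4 genes were marked, but 3 of them through summits that mostly lay in a neighbour. Polr1C (Dmel_CG3756, 2L, 4969004 to 4970216) had scores of 10.3, 15.3, 33.8 and 17.4, at percentiles 90.5, 89.8, 96.8 and 31.5. In replicates 1, 3 and 4 that summit lay in Scox, a gene of cytochrome oxidase assembly, at 4968748, 4968753 and 4968749. Inside Polr1C a summit was found in replicates 1 and 2, with scores of 6.40 and 15.3. The mean percentile was 77.1 ± 30.6 with either gene and 36.6 ± 44.4 with summits inside Polr1C alone (SD, n = 4 each).

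Polr1D (Dmel_CG10685, 2L, 19133023 to 19135233) had scores of 14.5, 21.5 and 8.03 in replicates 2 to 4 and none in replicate 1. The first 2 of these lay in DCTN6-p27, which encodes a dynactin subunit, and the last where Polr1D overlaps the growth regulator brat, 932 bp inside the gene. Its mean percentile was 43.8 ± 43.9 with any of these and 12.3 ± 17.3 with summits inside Polr1D alone (SD, n = 4 each). With the highest summit of either gene or a neighbour, Polr1C exceeded Polr1D in 4 of 4 replicates, by 33.4 ± 38.9 percentile points (SD, n = 4). The spread was larger than the difference. With summits inside each gene alone this direction was lost. Polr1C then stood at percentiles 56.7 and 89.8 in replicates 1 and 2 and had no summit in replicates 3 and 4. Polr1D had none in replicates 1 and 2 and stood at 36.7 and 12.5 in replicates 3 and 4.

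Polr2C (Dmel_CG7885, 2L, 13833337 to 13834306) had scores of 8.01, 13.9, 23.0 and 41.0, with a mean percentile of 81.5 ± 4.41. A summit lay inside the gene in all 4 replicates. It was flanked by summits in GatC and PolG2 on the lower side in 2 replicates and in mRpS23 on the higher side in 4. The highest summit lay in mRpS23 in replicate 1 and in GatC and PolG2 in replicate 2. With summits inside Polr2C alone the scores were 5.95, 12.5, 23.0 and 41.0 and the mean percentile 73.3 ± 16.2. GatC encodes a subunit of a mitochondrial amidotransferase, PolG2 a subunit of the mitochondrial DNA polymerase and mRpS23 a protein of the mitochondrial ribosome. Polr2J (Dmel_CG6840, 2L, 17409698 to 17410406) had a mean percentile of 74.9 ± 12.1. Its highest summit lay in CG15141 in replicates 1, 2 and 4, and a summit inside Polr2J was present in replicates 2 and 3 with scores of 6.34 and 20.8. With summits inside Polr2J alone the mean percentile was 25.2 ± 34.8.

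The 5 small subunits common to all 3 enzymes were all marked. Polr2E (Dmel_CG11979, 2R, 10898031 to 10899060) had scores of 9.32, 16.0, 24.0 and 61.9, at percentiles 86.0, 91.4, 83.4 and 99.0. Summits lay inside the gene in 4 replicates, and inside ND-B14, which encodes a subunit of respiratory complex I, in the same 4 replicates. The ND-B14 summit was the higher in replicates 1 and 2 and the Polr2E summit in replicates 3 and 4, where it scored 24.0 and 61.9 against 23.8 and 36.3.

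Polr2H (Dmel_CG11246, 3L, 21728932 to 21729694) gave the highest score of any Polr gene in replicate 4, 67.0, at percentile 99.5, but that summit lay inside CG11247. Its own summits scored 5.29, 19.8, 22.7 and 24.0, with a mean percentile of 66.3 ± 27.1. Taken over either gene the mean was 86.7 ± 17.1 (SD, n = 4).

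Polr2F (Dmel_CG1163, 3R, 5371795 to 5372397) had scores of 9.93, 9.14, 17.4 and 40.6, each inside the gene, with positions within 70 bp of each other. Polr2L (Dmel_CG13628, 3R, 24717511 to 24717998) was low in replicates 1 and 2, at percentiles 32.3 and 30.9, and high in replicates 3 and 4, at 91.3 and 87.3. The replicate 1 summit lay in CG13630. Polr2K (Dmel_CG34186, 2R, 15144968 to 15145519) had no summit in replicate 1 and percentiles of 72.2, 44.7 and 82.3 in replicates 2 to 4, all inside the gene. Their median length was 603 bp, against 2163 bp for all protein-coding genes, so the windows around both ends overlap in each of the 5.

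The stalk leans out from the core near the exit of the new RNA. Polr2D and Polr2G form it in polymerase II. Polr2D (Dmel_CG43662, 3R, 18252843 to 18255487) has the same annotated span as Ada2a, a gene of histone acetyltransferase complexes, so no summit here belongs to either gene alone. Its highest summits stood at percentiles 49.7, 95.1, 79.6 and 73.3 in replicates 1 to 4. In replicates 1 to 3 they lay in CG12320, and in replicate 4 in the shared span of Polr2D and Ada2a at 18255248. In replicates 1 and 2 the summit by the higher end lay across the boundary, in the shared span of Tgs1 and moi. The mean percentile was 74.4 ± 18.8 with any of these genes and 28.5 ± 35.5 with summits inside Polr2D alone (SD, n = 4 each).

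Polr2G (Dmel_CG31155, 3R, 15222251 to 15223180) had scores of 22.3 and 30.8 in replicates 3 and 4, at percentiles 79.0 and 65.5. The summits, at 15222943 and 15222965, were inside the gene, 237 and 215 bp from its end, and not weak ones. This gene was the only Polr gene below the threshold, and it was marked when replicate 1 or replicate 2 was left out and a summit in 2 of the remaining 3 asked for.

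Polr3I, of the polymerase III stalk (Dmel_CG4875, X, 16884581 to 16886612), had scores of 7.85, 8.72, 22.8 and 37.1 and a mean percentile of 70.8 ± 14.7, with the highest summit in Nprl2, a regulator of the TOR pathway, in replicates 1, 3 and 4. Summits by its other end lay in CG4880 or where DENR, a translation reinitiation factor, lies within the Polr3I span. With summits inside Polr3I alone the mean was 44.2 ± 23.9, and with each summit counted only for the nearest gene end it was 14.4. The stalk subunit of polymerase I, Polr1F (Dmel_CG13773, 2L, 6906666 to 6907844), had scores of 7.34, 10.8, 18.8 and 19.3. In replicates 1 and 3 the summit lay in Rat1, a nuclear exonuclease, and the mean percentile was 59.4 ± 15.3 with either gene and 38.3 ± 28.4 with summits inside Polr1F alone (SD, n = 4 each).

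Each enzyme has a small zinc-ribbon subunit, which in yeast polymerases I and III cuts back the RNA of a stalled enzyme. All 3 genes had summits inside the gene in 4 replicates. Polr2I, that of polymerase II (Dmel_CG3284, 3R, 14309089 to 14310178), had the highest mean of all Polr genes, 94.2 ± 4.29 (SD, n = 4), place 92 among all protein-coding genes. Its scores were 9.95, 16.5, 40.5 and 51.5, at percentiles 89.2, 92.7, 99.3 and 95.5. The replicate 4 summit lay in su(Hw), an insulator protein gene, and with summits inside Polr2I alone the scores were 9.95, 16.5, 40.5 and 41.1 and the mean 91.7 ± 5.81. It stayed high with either assignment, but with summits inside the gene alone Polr3D had the highest mean, 93.0.

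Polr3K, the zinc-ribbon subunit of polymerase III (Dmel_CG33785, 2R, 20642466 to 20643785), has the same annotated span as Tcs1, a tRNA modification gene. Its highest summit lay in DMAP1, a gene of the Tip60 chromatin complex, in all 4 replicates, with scores of 7.62, 11.9, 21.4 and 47.7. Inside the shared span the scores were 5.94, 9.77, 10.8 and 34.1. Polr1H, in polymerase I (Dmel_CG13418, 3R, 21777203 to 21777847), had scores of 6.13, 10.5, 21.6 and 26.9, all inside the gene, with a mean percentile of 62.2 ± 10.6, the median of the 31 genes.

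Polymerase III carries its own counterparts of general initiation factors, Polr3D with Polr3E and Polr3C with Polr3F and Polr3G, and Polr1E has such a role in polymerase I. All 6 genes were marked in 4 replicates. Polr3D (Dmel_CG5147, 3L, 18107848 to 18109574) had scores of 9.69, 27.2, 47.0 and 40.1, at percentiles 88.0, 99.9, 99.8 and 84.2. Its summits, at 18109377, 18109355, 18109393 and 18109296, all lay inside the gene. The score was the highest of all Polr genes in replicates 2 and 3, and the mean of 93.0 ± 8.09 (SD, n = 4) was place 131 among all protein-coding genes.

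Polr3E, the partner of Polr3D (Dmel_CG10582, 3L, 21031825 to 21033561), had scores of 6.36, 4.87, 16.6 and 24.0, also inside the gene, with a mean of 43.8 ± 19.6. Polr3D exceeded it in 4 of 4 replicates by 49.2 ± 24.2 percentile points (SD, n = 4). Among the 7 pairs of partner subunits set side by side, the larger differences were Polr1A minus Polr1B, already given, and this one. The smallest was Polr2C minus Polr2J at 6.54 ± 12.3 points. These differences take the highest summit in the window, also where it lies in a neighbour. With summits inside the gene alone Polr2C and Polr2J were far apart, with mean percentiles of 73.3 and 25.2.

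Polr3C (Dmel_CG12267, 3R, 12460414 to 12462418), Polr3F (Dmel_CG5380, 3R, 22366080 to 22367373) and Polr3G (Dmel_CG33051, 3L, 17426286 to 17427130) had mean percentiles of 48.3 ± 20.2, 61.8 ± 11.8 and 51.9 ± 33.4 (SD, n = 4 each). Each had a summit of its own in replicates 2 to 4 and none in replicate 1, where the summit counted lay in CG5961, CG5382 and COX7B. For Polr3C the highest summit lay in CG5961 in replicate 3 as well. With summits inside Polr3C alone the mean percentile was 39.3 ± 29.4. For Polr3F the highest summit lay in CG5382 in replicates 3 and 4 as well, and with summits inside Polr3F alone the mean percentile was 31.8 ± 23.0. For Polr3G the highest summit was that in COX7B, a gene of respiratory complex IV, in every replicate. The summits inside Polr3G scored 6.04, 14.8 and 14.4 in replicates 2 to 4, and with these alone its mean percentile was 24.3 ± 19.4. Polr1E (Dmel_CG18600, 3R, 18300195 to 18301728) had summits inside the gene with scores of 6.93, 3.75, 13.4 and 22.1. In replicates 2 and 3 a summit in Dlc90F, a dynein light chain gene, was higher, and with summits inside Polr1E alone the mean percentile was 39.0 ± 22.8, against 59.5 ± 13.6 with either gene.

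Polr2M (Dmel_CG3773, 3R, 19229463 to 19230832), the counterpart of human Gdown1, a protein that binds polymerase II without being part of its core, had scores of 9.29, 10.8, 13.9 and 34.9. All lay inside the gene within 82 bp, and the mean percentile was 67.8 ± 17.7. PolrMT (Dmel_CG4644, 2L, 1103254 to 1108373) had scores of 8.61, 7.24, 16.4 and 17.6 at positions 1108169, 1108206, 1108140 and 1108179, a span of 66 bp at the higher-coordinate end. Its percentiles fell on both sides of the middle, at 80.8, 35.4, 56.1 and 32.1.

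**Figure D4:**
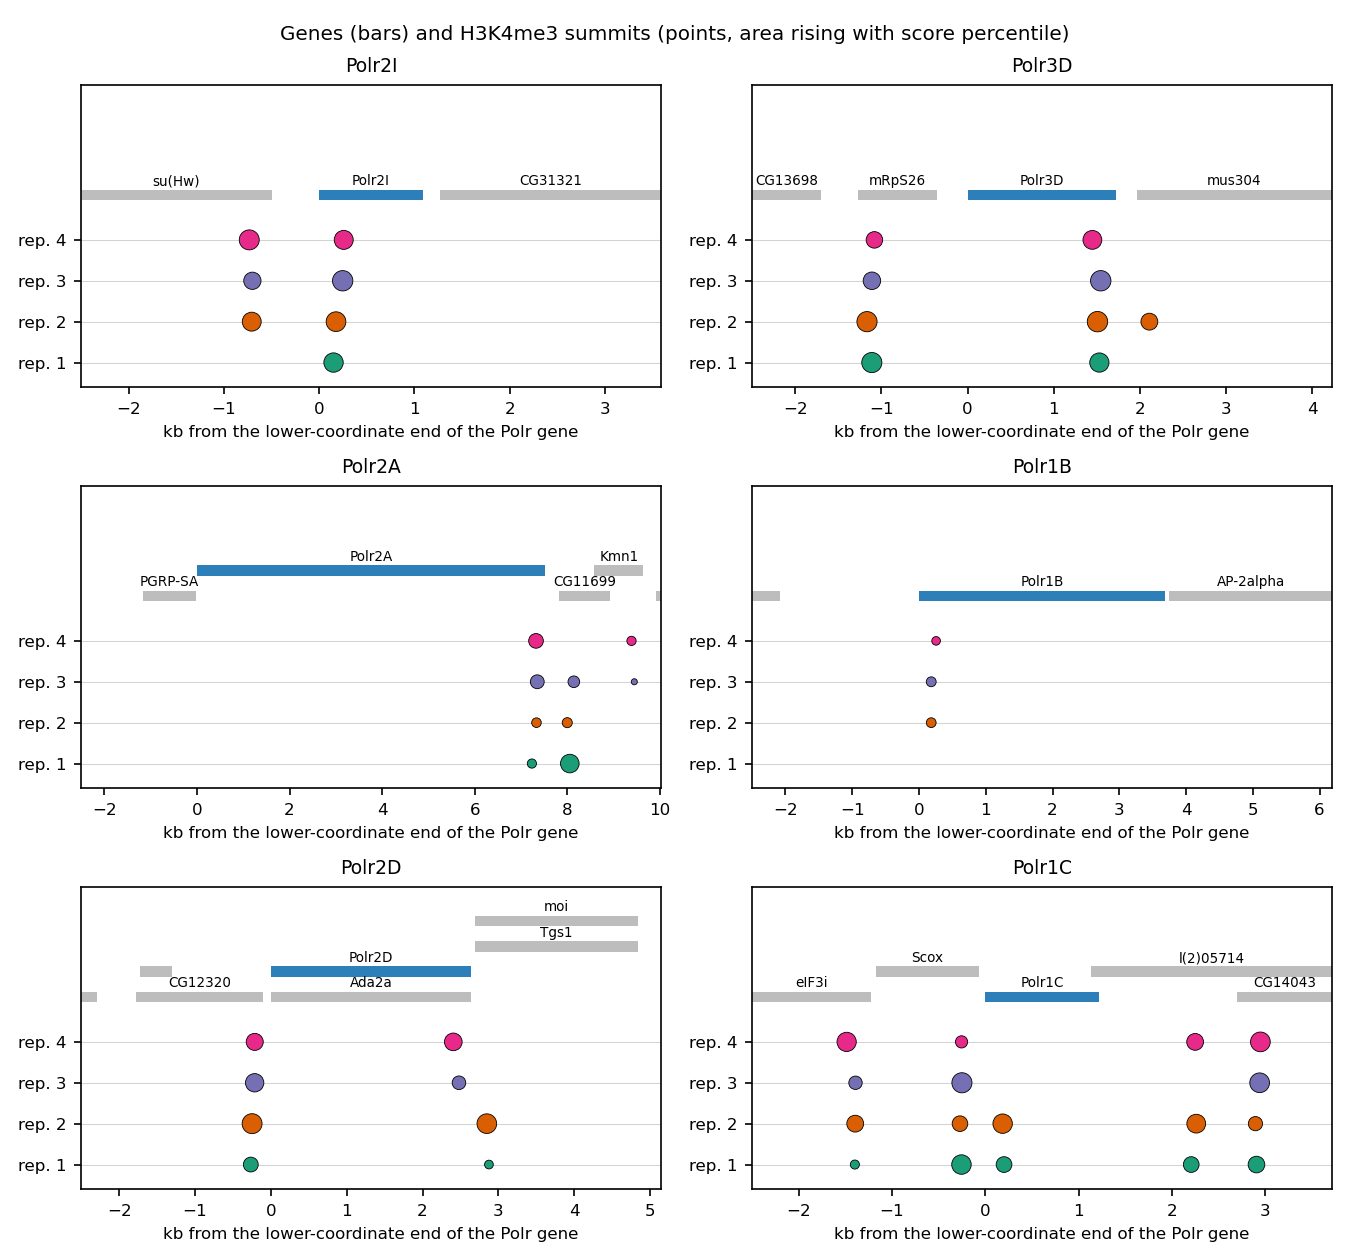
Genes (bars, the Polr gene in blue and other protein-coding genes in grey, names shown where over 500 bp are in view) and H3K4me3 summits of the 4 replicates (points, area rising with the score percentile) around 6 Polr genes, in kb from the lower-coordinate end of the Polr gene. Summits stand inside Polr2I and Polr3D and at the right end of Polr2A in 4 replicates, and Polr1B has 3 small ones. At Polr2D and Polr1C most summits lie in neighbouring genes.

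Genes whose products work with the polymerases were also mostly marked. A list of 44 symbols matched 33 genes, of which 31 were marked, against 43.9% of all protein-coding genes. A summit inside the gene was present in at least 3 replicates at 27 of the 33, against 31.1% of all protein-coding genes. The median of the mean percentiles of the 33 genes was 65.1. Among the initiation factors of polymerase I both genes were marked, led by Tif-IA, which recruits the enzyme to ribosomal DNA (63.8 ± 28.8). Among 7 genes of polymerase III initiation and its control all were marked, led by Bdp1, a subunit of the factor TFIIIB, at 87.2 ± 19.1 (SD, n = 4).

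Of 17 genes of polymerase II pausing, elongation and its C-terminal domain enzymes, 15 were marked. Ctr9, a subunit of the Paf1 elongation complex, led them at 94.6 ± 7.40 (SD, n = 4), with scores of 18.3, 20.4, 34.6 and 39.8. Another subunit of the same complex, atms, had no summit in any replicate, and hyx, a further one, had a summit in 2. All 6 mitochondrial transcription genes were marked, but only 3 had a summit inside the gene in at least 3 replicates. The group was led by TFAM, which packages mitochondrial DNA, at 77.4 ± 14.4. Its highest summits in replicates 2 to 4 lay beyond the end of the gene, that of replicate 4 inside CG5412. The only matched gene of polymerase assembly, spag, stood at 78.4 ± 8.63.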

How the data were processed

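H3K4me3 ChIP-seq of 4 fly samples was used, and 8 input and 4 beetle ChIP samples were not. The submitters' processing notes name FastQC 0.11.7 and cutadapt 1.16, then BWA 0.7.17 for alignment, SAMtools 1.9, Picard 2.17.11, and MACS2 with no version or parameters. The score deposited by the authors with every summit is a −log10 value of the kind MACS2 reports, and whether of p or of q was not stated. Its lowest values, 1.31 to 1.36, lie just above 1.30, that of a threshold of 0.05. Summits were deposited per sample, with no pooling. The labels call the samples biological replicates.

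Gene spans came from the RefSeq gene table (Release 6 plus ISO1 MT), and coordinates are 1-based. The labels do not name the build. Per arm, 47.0% to 88.5% of summits were at most 500 bp from a protein-coding gene end of that arm, against at most 20.7% for the genes of another arm and 9.52% to 29.5% after a shift of 10 kb. Lacking strand and sequence in the table, promoter motifs were not run. Members and lists were chosen with earlier results of these data known, and no comparison of them with other genes was tested. The Polr genes are named, with the neighbours that hold their summits, except 1 that is counted throughout and not reported here by itself. Of the partner list, each group's highest marked gene by percentile and, in alphabetical order, its first gene without a summit are named, and hyx was added after its values were seen. Of 44 listed symbols 11 were unmatched. The scoring of genes was tested on simulated summits. Alternative windows, thresholds and assignments are given in the closing section. The scripts ran under Python 3.11.15 with pandas 2.3.3 and numpy 2.4.6, and used scipy 1.17.1 for correlations and matplotlib 3.10.9 for plots.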

Additional observations from a re-analysis of the deposited data

Results flagged for a closer look

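At 2 of the 31 Polr genes 1 replicate stood apart from the others, by a test of the gap to the nearest value against the whole range (Dixon's test), which chance passes in about 1 group of 20. Polr1C was at percentile 31.5 in replicate 4, and at 89.8 to 96.8 in the others, a gap of 0.893 of the range. Polr1F was at percentile 36.5 in replicate 4, and at 65.7 to 68.6 in the others, a gap of 0.909 of the range. In Polr1C the replicate 4 summit lay in Scox, as in replicates 1 and 3. In Polr1F it lay inside the gene, as in replicate 2.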

How the results depend on the processing

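With 1 replicate left out the number of marked Polr genes ran from 30 to 31 and that of polymerase II genes from 12 to 13, and the other counts did not move. The mean share with a summit ran from 93.5% to 98.9% and the median percentile from 62.2 to 66.0. The number marked was 28 with 3518 summits in each replicate and 30 with scores of at least 5, neither set beside all genes. It was 24, against 4250 of all 13922 protein-coding genes, where a summit counted only for the nearest gene end. With 250 bp, 3 polymerase I genes and 3 shared subunits were marked and the mean share was 71.0%. With the nearest gene end 4 shared subunits were marked and the share was 80.6%, and with summits inside the gene the share was 85.5%. The median percentile was 36.6 with 250 bp, 70.8 with 2 kb, 53.0 with scores of at least 5, 50.7 with equal numbers of summits, 49.8 with summits inside the gene and 43.8 with the nearest gene end. It was 67.8 with absent replicates left out, an alternative chosen after seeing the data. The cause of these shifts was not tested. Percentiles of single genes moved by more than 1 SD at 15 of 31 genes with 250 bp, at 12 with summits inside the gene, at 12 with the nearest gene end, at 8 with equal numbers of summits, at 4 with 500 bp and at 2 with scores of at least 5. The SD is each gene's own, so a gene with a wide spread can shift far without being counted. Polr1D, with an SD of 43.9, went from 43.8 to 0 with the nearest gene end and was not counted. Counting only annotated starts was not run, since the table gives no strand. No paired analysis was possible because 1 group of samples was used and no groups were compared by a test. Read depth is unknown, so an absent summit can be a missed peak.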
